A study of Homo sapiens with 8 samples.

Results

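The genes described here are the nuclear genes for the protein complexes of oxidative phosphorylation, in 2 human acute myeloid leukaemia lines in which METTL14 was lowered with a hairpin. They were taken by symbol: NDUFA, NDUFB, NDUFC, NDUFS or NDUFV followed by a digit, UQCR, COX4 to COX8, ATP5, and SDHA, SDHB, SDHC, SDHD and CYC1. This took 88 of 16726 listed rows. Of these, 78 are subunit genes: 36 of complex I, 4 of complex II, 9 of complex III, 14 of complex IV and 15 of complex V. NDUFA4 was placed in complex IV, where its protein is now assigned. The other 10 rows matched the symbols but are no subunit gene: 3 RNAs named as antisense, 2 pseudogenes, 2 near copies, 1 paralog and 2 factors. The files use older symbols, so the ATP synthase genes stand here as ATP5A1 or ATP5I in place of ATP5F1A and ATP5ME. Subunits encoded by mitochondrial DNA were not analysed here.

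Poly(A) RNA was sequenced from NB4 and MM6 cells, with 2 libraries in each of 4 groups. In each line, cells carried a pLKO.1 lentiviral hairpin against METTL14 (shM14, labelled shM14-#2) or the non-specific hairpin shNS, so every library came from transduced cells kept in 0.5 µg/mL puromycin for 2 passages. A single hairpin stood for METTL14, and the labels name no clone. Nothing in them tells separate cultures from repeat libraries of 1 culture, so p-values here cover the spread of these libraries only. NB4 is an established promyelocytic line and MM6 (MonoMac 6) an established monocytic line, although the labels name a monocytic leukaemia for both. METTL14 works with METTL3 to place N6-methyladenosine on RNA.

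Complex I passes electrons from NADH to ubiquinone, complex II from succinate to ubiquinone, complex III from ubiquinol to cytochrome c, and complex IV from cytochrome c to oxygen. Complexes I, III and IV pump protons across the inner mitochondrial membrane, and complex V, the ATP synthase, makes ATP as the protons return. The nuclear subunits are translated in the cytosol, imported, and built around the few core subunits made inside the organelle, and leukaemia cells are known to draw on this pathway.

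Depth was 23272126 to 28814911 reads per library. METTL14 had 8.35 and 8.35 RPKM in the shM14 libraries, against 14.1 and 12.5 RPKM in the shNS libraries, in NB4 (limma log2 change -0.61, SE 0.07, adjusted p = 0.00241). In MM6 it had 6.54 and 6.55 RPKM in the shM14 libraries, against 12.5 and 13.4 RPKM in the shNS libraries, and the change did not pass the test (limma log2 change -0.88, SE 0.13, adjusted p = 0.0877), although the groups did not overlap. Markers of myeloid maturation differed with the hairpin in NB4. The summed level of 6 monocyte markers was 119 and 119 RPKM with shM14, against 43.5 and 45.2 RPKM with shNS. All 5 of them that could be tested in NB4 rose, where limma had 22.1% of all tested genes higher and 25.2% lower. CD14, the defining one, was at 0.977 and 0.699 RPKM with shM14, against 0.111 and 0.105 RPKM with shNS. In MM6 the same sum was 14438 and 8253 RPKM with shM14, against 9296 and 5901 RPKM with shNS. By gene, 5 of the 6 had a change above 0 in MM6, with a median log2 change of 0.65. In 4 both shM14 libraries lay above both shNS libraries, beside 19% of all genes tested in MM6. None of the 6 passed the limma test in MM6, while the authors' deposited table called 3 higher, beside 1.58% of all genes. Of the 5 promyelocyte markers in NB4, 1 rose and 3 fell, and their summed level was 2318 and 2361 RPKM with shM14, against 2567 and 2666 RPKM with shNS. In MM6 their sum was 4636 and 5021 RPKM with shM14, against 4368 and 4551 RPKM with shNS, above that in NB4. By gene, 2 of the 5 had both shM14 libraries above both shNS libraries in MM6, and 3 had them below. The shares of all genes tested in MM6 were 19% and 25.8%. None of the 5 passed the limma test in MM6, and their median log2 change was -0.44. The authors' deposited table called 1 of them lower in MM6, beside 1.69% of all genes. ELANE, one of these 5 markers, was listed at 0.0387 and 6.45 RPKM with shM14, against 0.0462 and 6.83 RPKM with shNS in NB4, low in both replicate 1 libraries and higher in both replicate 2 libraries. Of 12 markers of other cell types 6 were listed, with 3 of them above 1 RPKM in NB4 (CD3D, EPCAM and KRT18) and 2 in MM6. Their sum in NB4 was 75.2 and 71.7 RPKM with shM14, against 63.1 and 60.9 RPKM with shNS, with 1 of the 3 called higher and 1 lower, and in MM6 it was 9.85 and 8.90 RPKM with shM14, against 12.8 and 13.2 RPKM with shNS. The part of these shifts in the results below was not tested, and in bulk libraries fewer cells of a type and less RNA per cell cannot be told apart.

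In NB4, most subunit genes of the respiratory chain and the ATP synthase rose with shM14. Changes are differences of log2(RPKM + 1), shM14 minus shNS, where RPKM is the reads per kilobase of a gene's model and per 1e6 reads of the library. For genes of low level this scale gives less than the true change. Genes with at least 1 RPKM in at least 2 libraries were fitted with limma, and those with an adjusted p under 0.05 over all tested genes were called. Of the 88 rows, 82 passed that minimum in NB4, where 48 rose, 3 fell and 31 did not pass the test. Among all 11531 genes tested in NB4, 22.1% were higher and 25.2% lower by the same rule. The median change was 0.25 over the 82 rows and -0.01 over all tested genes. In 65 of the 82 rows both shM14 libraries lay above both shNS libraries, against 37.2% of all tested genes, and in 7 they lay below, against 40%. The authors' deposited table had 61 of the 88 rows higher and 2 lower in NB4 at an adjusted p under 0.05, beside 22.1% and 21.5% of all 16726 genes. At an unadjusted p under 0.05, limma had 58 of the 82 rows, beside 55.5% of all tested genes.

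The median change was alike in the 5 complexes. It was 0.24 over 36 tested genes of complex I, 0.28 over 4 of complex II, 0.26 over 9 of complex III, 0.30 over 12 of complex IV and 0.27 over 14 of complex V. The number that rose was 21, 3, 7, 7 and 9 in that order, and 1 gene each of complexes I and V fell. The number of calls rests on 1 library more than on the others. Without shM14 replicate 1 of NB4, 20 rows were higher and 1 lower, and 11.3% of all tested genes were higher. With all 8 libraries in 1 model, which gives NB4 the spread of MM6 too, 11 rows were higher and none lower, beside 6.57% and 8.77% of all genes.

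**Figure D1:**
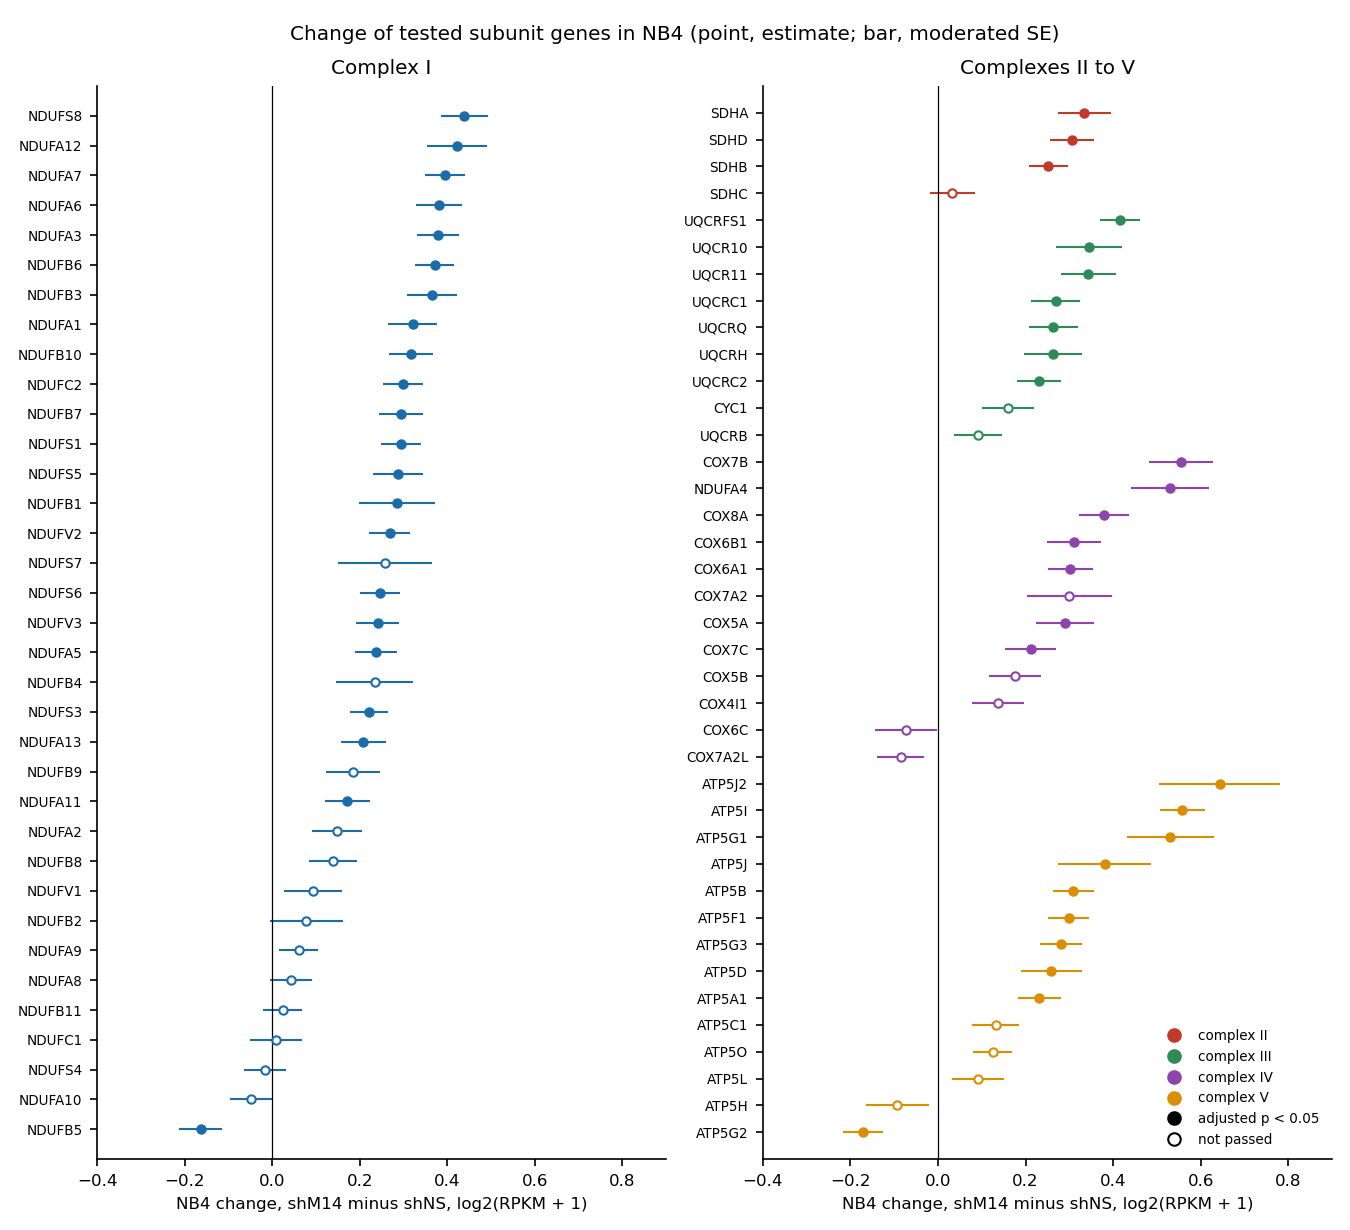
Change of tested subunit genes in NB4, shM14 minus shNS, in log2(RPKM + 1), with complex I on the left and complexes II to V on the right. Points are limma estimates, bars the moderated SE, and filled points passed the test. Of the 75 subunit genes tested, 47 rose, 2 fell (NDUFB5 and ATP5G2), and the changes run from -0.17 to 0.64.

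Complex I is the largest of the complexes. Its core subunits carry the flavin and iron-sulphur clusters, and its many accessory subunits surround them. Of the 7 nuclear core genes, 4 rose in NB4. NDUFS8, which holds iron-sulphur clusters on the path to ubiquinone, had 56.6 and 52.9 RPKM in the shM14 libraries, against 39.6 and 40.6 RPKM in the shNS libraries. Its groups did not overlap, and it rose by the largest amount in complex I (limma log2 change 0.44, SE 0.05, adjusted p = 0.00337). NDUFS1, the large iron-sulphur subunit of the NADH module, had 47 and 46.3 RPKM in the shM14 libraries, against 37.5 and 38.4 RPKM in the shNS libraries, also without overlap (limma log2 change 0.29, SE 0.05, adjusted p = 0.0065). NDUFV2 of the same module had 151 and 147 RPKM in the shM14 libraries, against 125 and 122 RPKM in the shNS libraries (limma log2 change 0.27, SE 0.05, adjusted p = 0.00902). Both shM14 libraries were above both controls for this gene too. NDUFS3 was at 112 and 112 RPKM with shM14 and 95.5 and 95.6 RPKM with shNS (limma log2 change 0.22, SE 0.04, adjusted p = 0.0134), again with the groups apart.

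Other core genes did not pass the test in NB4. NDUFV1, which binds NADH and flavin, had 108 and 113 RPKM in the shM14 libraries, against 98.6 and 109 RPKM in the shNS libraries, and the groups overlapped (limma log2 change 0.09, SE 0.07, adjusted p = 0.297). NDUFS7, which holds the last iron-sulphur cluster before ubiquinone, had 33 and 28.7 RPKM in the shM14 libraries, against 23.4 and 27.9 RPKM in the shNS libraries, with the groups apart but the shNS libraries well separated from each other (limma log2 change 0.26, SE 0.11, adjusted p = 0.105).

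Of the 29 accessory genes of complex I, 17 rose, 1 fell and 11 did not pass the test in NB4, with a median change of 0.24. The accessory genes with the smallest p were NDUFA7, NDUFB6, NDUFA3 and NDUFA6. NDUFA7 had 144 and 142 RPKM in the shM14 libraries, against 110.2 and 107 RPKM in the shNS libraries (limma log2 change 0.39, SE 0.05, adjusted p = 0.00292). NDUFB6, of the membrane arm, had 122 and 121 RPKM in the shM14 libraries, against 94.8 and 93 RPKM in the shNS libraries (limma log2 change 0.37, SE 0.04, adjusted p = 0.00318). NDUFA3 had 116 and 112 RPKM in the shM14 libraries, against 88.1 and 86.5 RPKM in the shNS libraries (limma log2 change 0.38, SE 0.05, adjusted p = 0.00349). In each of these genes the replicates lay within a few RPKM of each other and the groups were well apart. NDUFA6 was at 54.5 and 52 RPKM with shM14 and 39.7 and 41.6 RPKM with shNS, likewise without overlap (limma log2 change 0.38, SE 0.05, adjusted p = 0.00468). NDUFS6, a zinc-binding accessory subunit and the complex I gene with the highest mean level over the 8 libraries, had 726 and 703 RPKM in the shM14 libraries, against 599 and 605 RPKM in the shNS libraries (limma log2 change 0.25, SE 0.05, adjusted p = 0.0116).

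NDUFB5, a membrane-arm accessory subunit, was the only complex I gene that fell in NB4. It had 61.6 and 61.8 RPKM in the shM14 libraries, against 70.8 and 67.7 RPKM in the shNS libraries, with both shM14 libraries below both controls (limma log2 change -0.16, SE 0.05, adjusted p = 0.0423). The authors' deposited table gave it a log2 fold change of -0.14 with an adjusted p of 0.0299. The call was lost with median-of-ratios scaling (limma adjusted p = 0.0769), a pseudocount of 0.1 (limma adjusted p = 0.0572), no filter (limma adjusted p = 0.0515) and all 8 libraries in 1 model (limma adjusted p = 0.362), and when any 1 of the libraries other than shNS replicate 2 was left out (limma adjusted p = 0.099 to 0.19), while the direction was the same. By name, 8 of 12 NDUFA genes, 5 of 11 NDUFB genes, 5 of 8 NDUFS genes, 2 of 3 NDUFV genes and 1 of 2 NDUFC genes rose in NB4.

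Complex II is succinate dehydrogenase and also a step of the tricarboxylic acid cycle. Of its 4 genes, 3 rose in NB4. SDHA, the flavin subunit that oxidises succinate, had 56.8 and 57.1 RPKM in the shM14 libraries, against 42.8 and 47.1 RPKM in the shNS libraries (limma log2 change 0.33, SE 0.06, adjusted p = 0.0105). SDHB, which carries the iron-sulphur clusters, had 63.7 and 64.8 RPKM in the shM14 libraries, against 53.9 and 53.8 RPKM in the shNS libraries (limma log2 change 0.25, SE 0.04, adjusted p = 0.00957). SDHD, a membrane anchor, had 113 and 109 RPKM in the shM14 libraries, against 91.4 and 87.9 RPKM in the shNS libraries (limma log2 change 0.31, SE 0.05, adjusted p = 0.00764). The groups of all 3 were apart. SDHC, the other anchor and the lowest of complex II by mean level, had 38.3 and 36.5 RPKM in the shM14 libraries, against 37.3 and 35.7 RPKM in the shNS libraries, with overlapping groups (limma log2 change 0.03, SE 0.05, adjusted p = 0.632).

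In complex III, 7 of 9 genes rose in NB4, and in all 9 both shM14 libraries were above both shNS libraries. UQCRFS1, the Rieske iron-sulphur protein that takes electrons from ubiquinol, had 73.2 and 75.2 RPKM in the shM14 libraries, against 55 and 55.7 RPKM in the shNS libraries (limma log2 change 0.42, SE 0.05, adjusted p = 0.00248). UQCRC1, a core protein on the matrix side, had 111 and 107 RPKM in the shM14 libraries, against 87.4 and 93.6 RPKM in the shNS libraries (limma log2 change 0.27, SE 0.06, adjusted p = 0.0154). UQCR11, a small subunit, had 45.1 and 43.1 RPKM in the shM14 libraries, against 32.9 and 36.2 RPKM in the shNS libraries (limma log2 change 0.34, SE 0.06, adjusted p = 0.0109). UQCRFS1 had the largest change and the smallest SE of these 3. CYC1, cytochrome c1, had 85 and 91.8 RPKM in the shM14 libraries, against 77.3 and 80.8 RPKM in the shNS libraries, and did not pass (limma log2 change 0.16, SE 0.06, adjusted p = 0.0786), while the authors' deposited table called it with an adjusted p of 0.00141. UQCRB, the lowest of the complex, had 29 and 27.1 RPKM in the shM14 libraries, against 26 and 26.5 RPKM in the shNS libraries, and did not pass either (limma log2 change 0.09, SE 0.05, adjusted p = 0.222).

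UQCRH, the hinge protein and the highest of complex III, had 348 and 334 RPKM in the shM14 libraries, against 299 and 269 RPKM in the shNS libraries (limma log2 change 0.26, SE 0.07, adjusted p = 0.028). Its near copy UQCRHL had 4.32 and 3.37 RPKM with shM14, against 3.89 and 4.64 RPKM with shNS, with overlapping groups. Many of these genes have near copies or processed pseudogenes, SDHA and UQCRH among them. How reads shared with such copies were counted is not given in the sources used here, so the levels of these genes are less certain.

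In complex IV, cytochrome c oxidase, 7 of 12 tested genes rose in NB4 and none fell. The number at an unadjusted p under 0.05 was 9. COX7B, a small subunit, had 332 and 306 RPKM in the shM14 libraries, against 228 and 206 RPKM in the shNS libraries (limma log2 change 0.55, SE 0.07, adjusted p = 0.004). NDUFA4 had 102 and 96.1 RPKM in the shM14 libraries, against 74.1 and 63.1 RPKM in the shNS libraries (limma log2 change 0.53, SE 0.09, adjusted p = 0.008). For both genes the lowest shM14 library was above the highest shNS library by more than the spread within either group. COX8A had 378 and 362 RPKM in the shM14 libraries, against 294 and 275 RPKM in the shNS libraries (limma log2 change 0.38, SE 0.06, adjusted p = 0.00587). COX6A1, the ubiquitous form of that subunit, had 436 and 425 RPKM in the shM14 libraries, against 339.9 and 359 RPKM in the shNS libraries (limma log2 change 0.30, SE 0.05, adjusted p = 0.00841). Its groups too were apart, as were those of COX6B1, on the side where cytochrome c docks, at 175 and 159 RPKM with shM14 and 135 and 134 RPKM with shNS (limma log2 change 0.31, SE 0.06, adjusted p = 0.0139).

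COX7C, the highest gene of complex IV, had 567 and 559.6 RPKM in the shM14 libraries, against 508 and 466 RPKM in the shNS libraries (limma log2 change 0.21, SE 0.06, adjusted p = 0.0357). COX4I1, the ubiquitous form of its subunit, had 424 and 417 RPKM in the shM14 libraries, against 365 and 399.6 RPKM in the shNS libraries, and did not pass (limma log2 change 0.14, SE 0.06, adjusted p = 0.118). COX7A2 had 205 and 192 RPKM in the shM14 libraries, against 176 and 147 RPKM in the shNS libraries, and just missed the threshold (limma log2 change 0.30, SE 0.10, adjusted p = 0.0541). COX7C and COX4I1, the highest of the complex in NB4 shNS libraries, had smaller changes than COX7B. The 2 genes below 0 were COX6C and COX7A2L. COX6C had 114 and 107 RPKM in the shM14 libraries, against 110.1 and 123 RPKM in the shNS libraries, with overlapping groups (limma log2 change -0.07, SE 0.07, adjusted p = 0.436). COX7A2L, which helps complexes III and IV join into a supercomplex, had 101 and 99.9 RPKM in the shM14 libraries, against 103 and 109.9 RPKM in the shNS libraries (limma log2 change -0.09, SE 0.05, adjusted p = 0.239). Neither passed the test.

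The tissue forms of complex IV subunits were at low levels in all libraries. COX6B2, the testis form, lay between 0.0771 and 0.353 RPKM, and COX7A1, the heart and muscle form, between 0.224 and 0.677 RPKM. Neither passed the minimum level, so neither was tested. NDUFA4L2, a paralog of NDUFA4 known to be raised in low oxygen, had 0.211 and 0.136 RPKM with shM14, against 0.431 and 0.263 RPKM with shNS in NB4 and was not tested.

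In complex V, 9 of 14 tested genes rose in NB4 and 1 fell. ATP5B, the catalytic beta subunit of the F1 head and the gene of complex V with the highest level, had 747 and 738 RPKM in the shM14 libraries, against 590.4 and 608 RPKM in the shNS libraries (limma log2 change 0.31, SE 0.05, adjusted p = 0.00575). ATP5A1, the alpha subunit that alternates with it, had 226 and 222 RPKM in the shM14 libraries, against 186 and 195 RPKM in the shNS libraries (limma log2 change 0.23, SE 0.05, adjusted p = 0.0164). Both were clear of their controls. ATP5F1, of the stalk that holds the head still, had 112 and 109 RPKM in the shM14 libraries, against 88.8 and 89.9 RPKM in the shNS libraries (limma log2 change 0.30, SE 0.05, adjusted p = 0.00635). The largest changes were in ATP5J2 and ATP5I, small membrane subunits, while the third such gene, ATP5L, changed by 0.09 and did not pass. ATP5I, subunit e, which helps ATP synthase pair into dimers, had 291 and 275 RPKM in the shM14 libraries, against 193 and 190.0 RPKM in the shNS libraries, the smallest p of any member (limma log2 change 0.56, SE 0.05, adjusted p = 0.00158). ATP5J2, subunit f, had 297 and 291 RPKM in the shM14 libraries, against 218 and 162 RPKM in the shNS libraries, the largest change but with controls far from each other (limma log2 change 0.64, SE 0.14, adjusted p = 0.0171).

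The ring of the ATP synthase is made of subunit c, a protein that ATP5G1, ATP5G2 and ATP5G3 all encode with different import signals. These 3 genes did not move together in NB4. ATP5G1 had 71.6 and 70.1 RPKM in the shM14 libraries, against 53.9 and 44.1 RPKM in the shNS libraries, and rose (limma log2 change 0.53, SE 0.10, adjusted p = 0.0113). ATP5G3 had 61 and 60.8 RPKM in the shM14 libraries, against 48.9 and 51 RPKM in the shNS libraries, and rose (limma log2 change 0.28, SE 0.05, adjusted p = 0.00834). ATP5G2, the one with the highest level in NB4, had 201 and 196 RPKM in the shM14 libraries, against 224 and 223 RPKM in the shNS libraries, and fell (limma log2 change -0.17, SE 0.05, adjusted p = 0.0314). The groups of all 3 were apart. The authors' deposited table also had ATP5G2 lower, with a log2 fold change of -0.14 and an adjusted p of 0.00345. When any 1 of the 4 NB4 libraries was left out the direction was the same, but the test was not passed (limma adjusted p = 0.0611 to 0.191), nor was it passed with median-of-ratios scaling (limma adjusted p = 0.061) or all 8 libraries in 1 model (limma adjusted p = 0.167).

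ATP5E, the epsilon subunit of the F1 head, stood apart by its level. It had 0.895 and 1.01 RPKM in the shM14 libraries, against 0.876 and 0.948 RPKM in the shNS libraries, which is 6 to 18 reads per library over both lines. ATP5D, the next lowest gene of the F1 head, had 31.7 and 31.4 RPKM with shM14 and 24.7 and 27.9 RPKM with shNS. The pseudogene of ATP5E, named ATP5EP2, had 2.91 and 1.97 RPKM with shM14, against 2.21 and 2.36 RPKM with shNS. The 2 rows are near-identical in sequence and the counting of shared reads is not given, so neither level can be taken as that of the subunit's RNA.

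**Figure D2:**
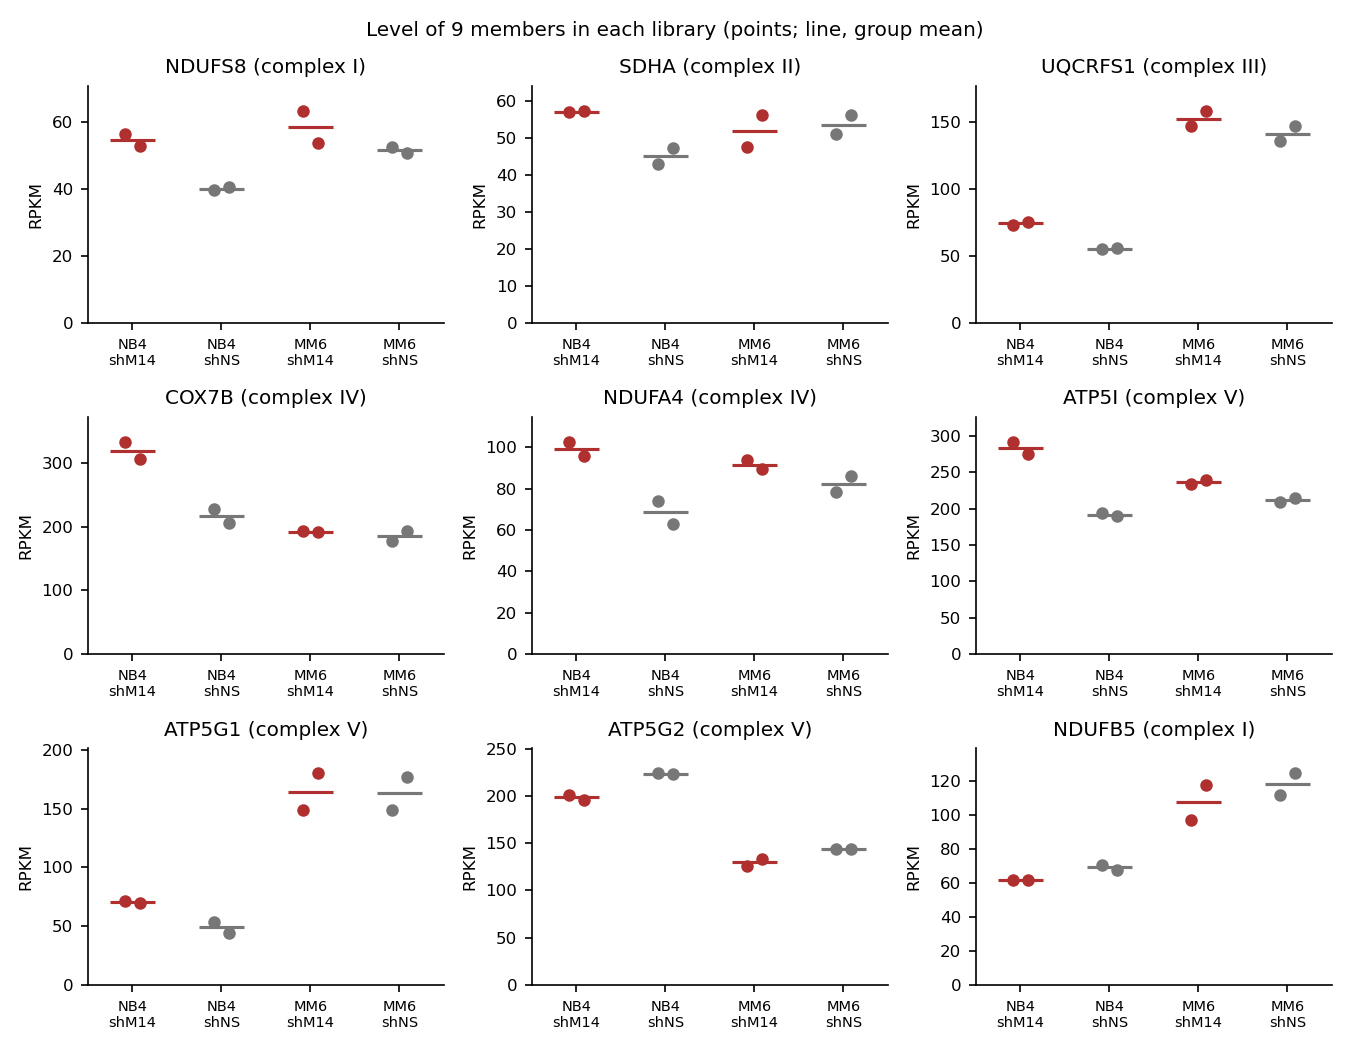
RPKM in each library (points) and the group mean (line) for 9 members in NB4 and MM6, shM14 in red and shNS in grey, with each axis starting at 0. In NB4 the shM14 libraries are apart from and above the shNS libraries for 7 of the genes and below them for ATP5G2 and NDUFB5; in MM6 the groups overlap for SDHA, COX7B, ATP5G1 and NDUFB5.

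The share of subunit genes that rose differed with the length of the gene model. Of 26 tested subunit genes with a model under 800 bp, 21 rose in NB4, and of the 49 with a longer one 26 rose. Among all tested genes the shares that rose were 24.5% and 22.0%. Across the 75 subunit genes the NB4 change had a Spearman rho of -0.27 with length and 0.13 with mean level, as a description of genes that share the same 4 libraries. The part of length in the changes was not tested.

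Summed over each complex, the level was 19.2% higher over all 78 genes with shM14 in NB4. Complex I summed to 3688 and 3555 RPKM with shM14, against 3063 and 3089 RPKM with shNS, a change of 17.7%. Complex II summed to 272 and 267 RPKM with shM14, against 225 and 224 RPKM with shNS, a change of 19.8%. Complex III summed to 926 and 904 RPKM with shM14, against 773 and 749.9 RPKM with shNS, a change of 20.2%. The shM14 libraries were the higher in each. Complex IV summed to 3282 and 3157 RPKM with shM14, against 2710.3 and 2661 RPKM with shNS, a change of 19.9%. Complex V summed to 2674 and 2607 RPKM with shM14, against 2219 and 2175 RPKM with shNS, a change of 20.2%. No complex had overlapping groups in NB4, and the 5 percentages lie within 3 points of each other. All 78 genes together held 2.43% and 2.36% of the RPKM total with shM14, against 2.06% and 1.99% with shNS.

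In MM6 the sums depended on the scaling. On the RPKM scale they overlapped for every complex but III. All 78 genes summed to 10207 and 11050.0 RPKM with shM14, against 9579 and 10713 RPKM with shNS, a change of 4.76%. Complex III summed to 1180.2 and 1262 RPKM with shM14, against 1068 and 1162 RPKM with shNS, a change of 9.53% with the groups apart. Complex I summed to 2905 and 3187 RPKM with shM14, against 2852 and 3258 RPKM with shNS, a change of -0.29%. The changes were 11.4%, 7.01% and 5.11% for complexes II, IV and V. On this scale the second MM6 library was the higher one in each complex and group. With median-of-ratios scaling complex I alone overlapped, at a change of 2.81%, and the changes were 14.8%, 12.9%, 10.4% and 8.38% for complexes II, III, IV and V. All 78 genes then summed to 10926 and 10641 with shM14, against 9647 and 10320 with shNS, a change of 8.02% with the groups apart and the first shM14 library the higher. In NB4 this scaling left every complex without overlap, at 20.3% to 22.8%. Leaving out each MM6 library in turn put the log2 ratio of all 78 genes between -0.01 and 0.15.

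**Figure D3:**
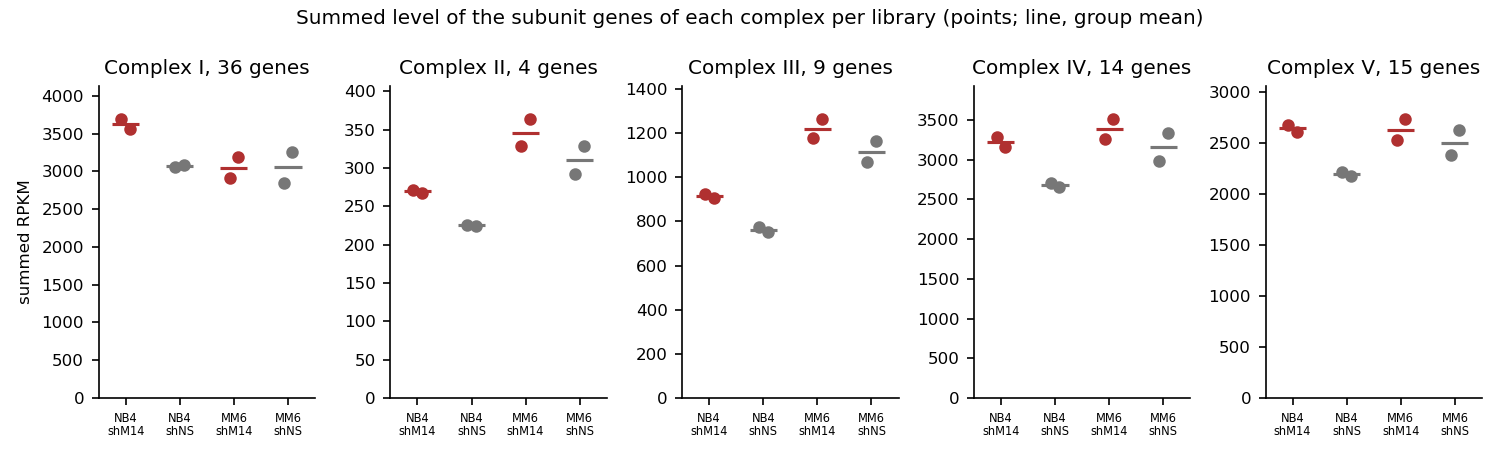
Summed RPKM of the subunit genes of each complex per library (points) with the group mean (line), shM14 left of shNS in each line, on axes that start at 0. In NB4 the shM14 sums are 17.7% to 20.2% above the shNS sums without overlap, while in MM6 the groups overlap for every complex but III on this scale and for complex I alone with median-of-ratios scaling.

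In MM6 none of the 81 tested rows passed the test, beside 0.0757% of 11895 tested genes, with 0.0504% higher and 0.0252% lower. The authors' deposited table called none of the 88 rows in MM6, beside 1.58% higher and 1.69% lower of all genes. At an unadjusted p under 0.05 there were 3 rows (15% of all genes), and limma voom on recovered reads called none either. The 3 were complex I genes. NDUFV3, a small subunit of the NADH module, had 29.9 and 30.4 RPKM in the shM14 libraries, against 21.6 and 23 RPKM in the shNS libraries (limma log2 change 0.42, SE 0.13, adjusted p = 0.238). NDUFA10 had 18.6 and 20.8 RPKM in the shM14 libraries, against 14.3 and 15.9 RPKM in the shNS libraries (limma log2 change 0.36, SE 0.14, adjusted p = 0.327). Both had their groups apart, with shM14 the higher. NDUFB2 had 47.7 and 55 RPKM in the shM14 libraries, against 62.5 and 88.2 RPKM in the shNS libraries (limma log2 change -0.53, SE 0.20, adjusted p = 0.325), with shM14 the lower and the controls far from each other. With the replicate number as a block, NDUFB2 alone of the rows was called (limma adjusted p = 0.0419), beside 11.8% of all genes. The median change in MM6 was 0.05 over the 81 rows and -0.03 over all tested genes. The change was above 0 in 54 rows, beside 45% of all genes. In 28 rows both shM14 libraries were above both controls, and in 10 below, beside 19% and 25.8% of all genes.

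The spread between libraries was wider in MM6. On the RPKM scale library 2 was above library 1 in 66 of 81 rows with shM14 and in 74 of 81 with shNS, and with median-of-ratios scaling in 27 and 66. In NB4 library 2 was above library 1 in 17 of 82 rows with shM14 and in 46 of 82 with shNS. The SE of a member's change had a median of 0.14 in MM6 and 0.05 in NB4, so changes as small as the NB4 median of 0.25 were not detectable for most members in MM6.

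By complex, the genes with the smallest p in MM6 were UQCRC2, SDHD, SDHB, ATP5G3, ATP5F1, COX6C, COX7A2L and UQCRC1, beside the complex I genes named above. UQCRC2, a core protein of complex III, had 118 and 130.1 RPKM in the shM14 libraries, against 99 and 96.8 RPKM in the shNS libraries (limma log2 change 0.34, SE 0.13, adjusted p = 0.336). SDHD had 119 and 138 RPKM in the shM14 libraries, against 96 and 117 RPKM in the shNS libraries (limma log2 change 0.27, SE 0.17, adjusted p = 0.531), and its groups were apart by a small margin. ATP5G3 had 31.9 and 36.5 RPKM in the shM14 libraries, against 26.2 and 30.7 RPKM in the shNS libraries (limma log2 change 0.26, SE 0.15, adjusted p = 0.526). COX6C had 128 and 133 RPKM in the shM14 libraries, against 152 and 159 RPKM in the shNS libraries (limma log2 change -0.25, SE 0.13, adjusted p = 0.449), with shM14 below the controls. In complex I, all 8 NDUFS genes had a change above 0 in MM6 and 8 of 11 NDUFB genes one below 0, with medians of 0.14 and -0.14. None of these 19 passed the test, and with median-of-ratios scaling 6 of the 11 NDUFB genes were below 0.

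A change common to both lines was fitted over all 8 libraries with the line's level taken out. Of 83 tested rows, 4 rose and none fell, beside 4.8% higher and 7.1% lower of 12804 tested genes. In this fit the share that rose was close to that of all genes, but not under some other settings: it was 21.7% of rows and 6.42% of all genes with median-of-ratios scaling, 18.1% and 6.58% with voom, and 10 rows beside 5.05% of all genes with a variance trend. At an unadjusted p under 0.05 there were 35 rows, beside 29.6% of all genes. The 4 that rose by the adjusted p were ATP5I (limma log2 change 0.36, SE 0.09, adjusted p = 0.0409), NDUFV3 (limma log2 change 0.33, SE 0.07, adjusted p = 0.021), UQCRC2 (limma log2 change 0.28, SE 0.07, adjusted p = 0.0317) and NDUFB10 (limma log2 change 0.29, SE 0.07, adjusted p = 0.0372). NDUFB10, a membrane-arm subunit, had 129.8 and 123 RPKM in the shM14 libraries, against 102 and 100.3 RPKM in the shNS libraries, in NB4, and 134 and 149 RPKM in the shM14 libraries, against 112 and 125 RPKM in the shNS libraries, in MM6. All 4 genes had every shM14 library above every shNS library within each line. The median common change was 0.16 over the 83 rows and -0.02 over all genes. The count depends on the processing: it was 18 with median-of-ratios scaling, 15 with voom, 0 when any 1 of the 4 NB4 libraries was left out, and 1 to 15 without 1 of the MM6 libraries.

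The difference between the lines was tested as an interaction, MM6 change minus NB4 change. None of the 83 rows passed it, beside 2.92% of all tested genes, with 1.53% above 0 and 1.39% below 0. At an unadjusted p under 0.05 there were 17 rows, beside 19.6% of all genes, and voom on recovered reads called 0. The difference was below 0 in 65 of 83 rows, with a median of -0.14 over them and -0.02 over all genes. The rows with the smallest p were COX7B (difference -0.50, SE 0.13, limma adjusted p = 0.0967), ATP5I (-0.40, SE 0.11, limma adjusted p = 0.103) and NDUFC2 (-0.54, SE 0.14, limma adjusted p = 0.103). ATP5J2 (-0.69) and NDUFA1 (-0.38) came next. With the replicate number as a block, COX7B and NDUFC2 passed (limma adjusted p = 0.0437 and 0.0415). That fit called 4.55% of all genes above 0 and 4.38% below 0.

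COX7B, at the top of that order, had 194 and 191 RPKM in the shM14 libraries, against 178 and 193 RPKM in the shNS libraries, in MM6, where its groups overlapped. NDUFC2, a membrane-arm accessory subunit, had 15.8 and 15.4 RPKM in the shM14 libraries, against 12.4 and 12.6 RPKM in the shNS libraries, in NB4, and 10.7 and 11.5 RPKM in the shM14 libraries, against 12.1 and 14.7 RPKM in the shNS libraries, in MM6. It was above its controls in NB4 and below them in MM6, and the difference itself did not pass without the block. Across the 75 subunit genes tested in both lines, the MM6 change had a Spearman rho of 0.23 and a Pearson r of 0.26 with the NB4 change. The points of a line share its 4 libraries, so these values describe the set.

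**Figure D4:**
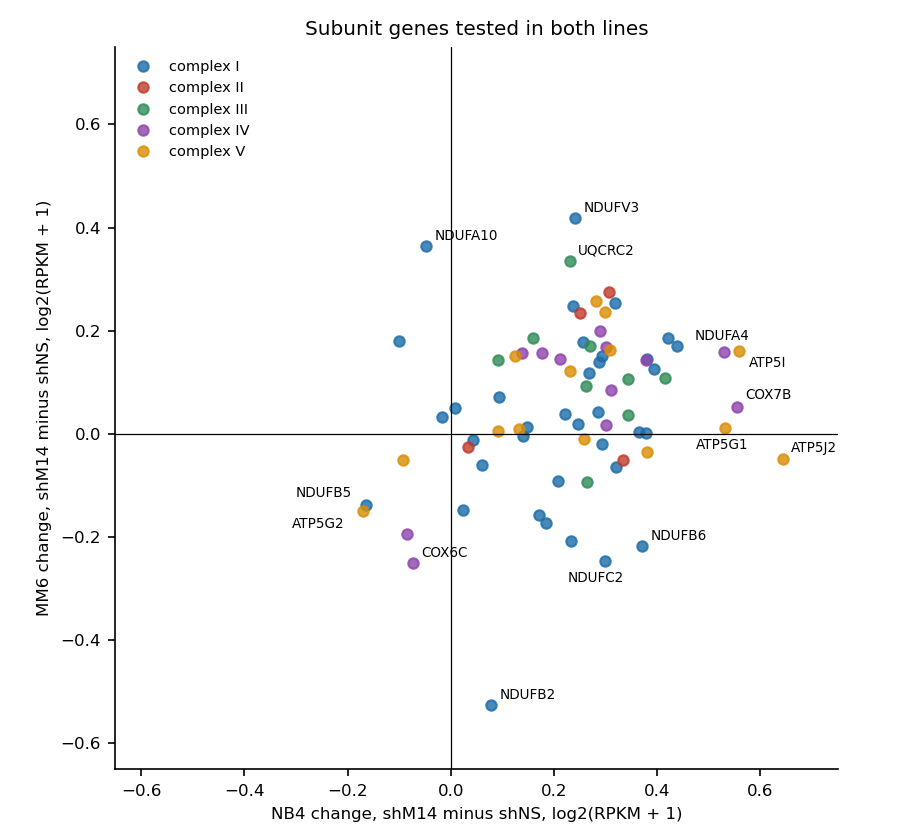
Change in MM6 against change in NB4 for the 75 subunit genes tested in both lines, in log2(RPKM + 1), shM14 minus shNS, coloured by complex. Most points lie right of 0 on the NB4 axis, while on the MM6 axis they lie on both sides of 0, between -0.53 and 0.42.

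Control levels of the subunit genes were alike in order but not in size between the lines. In shNS libraries the ratio of MM6 to NB4 had a median of 1.14 over the 78 genes, was above 2 in 10 and under 0.5 in 1. The gene under 0.5 was NDUFS6, which with shNS had 139 and 159.5 RPKM in MM6 and 599 and 605 RPKM in NB4. Those above 2 included COX6B1, NDUFB9, ATP5D, ATP5G1, NDUFS7 and UQCRFS1. COX6B1 had 544 and 633 RPKM with shM14 and 522 and 586 RPKM with shNS in MM6 with overlapping groups, several times its NB4 level. ATP5G1 had 149 and 179.9 RPKM with shM14 and 149 and 177 RPKM with shNS in MM6, where it and not ATP5G2, at 126 and 134 RPKM with shM14 and 144 and 144 RPKM with shNS, was the highest of the subunit c genes. RPKM is per length of the gene model, which runs from 354 to 6760 bp in complex I. The order of levels between genes therefore rests on these models as well as on the reads. In NB4 shNS libraries the complex I genes averaged 11.7 RPKM for NDUFA5, with a model of 6760 bp, to 602 RPKM for NDUFS6, with one of 548 bp.

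The promoters of the genes that carry these results are shown for their motifs. RefSeq windows (GRCh38.p14) of 300 bases, from 250 before a gene's start to 50 after it, matched 64 of the 78 subunit genes. They were searched on both strands for NRF1 (GCGCANGCG), ETS (CCGGAAG) and YY1 (AANATGGC), factors known to bind promoters of respiratory genes. The NRF1 letters were in 31.3% of the 64 windows, 16.1% of 9126 windows of genes tested in NB4 and 8.05% of all 27305 windows. The ETS letters were in 29.7%, 21.4% and 10.7% of them, and the YY1 letters in 34.4%, 11.2% and 6.82%. No subunit window had ETS and YY1 matches that share bases. Of the 41 subunit genes that rose in NB4 and had a window, 43.9% held the YY1 letters, 36.6% the ETS letters and 31.7% the NRF1 letters. Of the 21 that were tested and did not rise, the shares were 19.0%, 19.0% and 33.3%. In windows these are 18, 15 and 13 of 41 against 4, 4 and 7 of 21. Genes tested in NB4 were not split in this way as a whole. Whether the contrast is particular to subunit genes was therefore not tested. The NRF1 letters were shortened by 1 base after the shares of the longer form had been seen. In the longer form they were in 23.4%, 12.9% and 6.28% of the same windows, and in 24.4% of the subunit genes that rose and 23.8% of those that did not. A match is a description of the letters and not a binding site.

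Windows from 250 bases before to 30 after the start follow, with matches in capitals. They are those of ATP5I (chr4:674247-674526, minus strand), which rose by the smallest p, of SDHA (chr5:218070-218349, plus strand), with the NRF1 letters 4 times, of COX7B (chrX:77899218-77899497, plus strand) and NDUFS8 (chr11:68030431-68030710, plus strand), with the YY1 letters, and of the subunit c genes ATP5G1 (chr17:48892537-48892816, plus strand), which rose, and ATP5G2 (chr12:53676054-53676333, minus strand), which fell.
ATP5I: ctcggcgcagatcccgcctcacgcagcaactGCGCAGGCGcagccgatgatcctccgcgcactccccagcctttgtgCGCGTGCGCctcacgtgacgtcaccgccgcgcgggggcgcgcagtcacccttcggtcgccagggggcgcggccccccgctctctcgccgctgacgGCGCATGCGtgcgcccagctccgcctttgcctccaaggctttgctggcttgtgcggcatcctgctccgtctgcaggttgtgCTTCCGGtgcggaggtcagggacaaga
SDHA: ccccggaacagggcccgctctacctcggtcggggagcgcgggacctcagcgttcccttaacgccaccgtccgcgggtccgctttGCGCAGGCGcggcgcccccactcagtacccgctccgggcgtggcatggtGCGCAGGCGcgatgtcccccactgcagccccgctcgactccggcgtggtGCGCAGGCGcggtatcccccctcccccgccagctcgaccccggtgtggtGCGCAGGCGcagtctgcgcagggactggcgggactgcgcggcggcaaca
COX7B: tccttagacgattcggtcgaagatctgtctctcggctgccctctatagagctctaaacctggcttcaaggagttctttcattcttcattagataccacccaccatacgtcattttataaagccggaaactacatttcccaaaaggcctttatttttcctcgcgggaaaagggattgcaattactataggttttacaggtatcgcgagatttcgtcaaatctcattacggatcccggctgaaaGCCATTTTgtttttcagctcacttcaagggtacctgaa
NDUFS8: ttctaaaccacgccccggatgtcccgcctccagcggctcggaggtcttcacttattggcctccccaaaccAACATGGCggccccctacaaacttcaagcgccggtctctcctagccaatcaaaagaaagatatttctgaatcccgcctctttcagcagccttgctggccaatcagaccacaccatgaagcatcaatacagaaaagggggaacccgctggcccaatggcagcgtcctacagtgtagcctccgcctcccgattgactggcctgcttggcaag
ATP5G1: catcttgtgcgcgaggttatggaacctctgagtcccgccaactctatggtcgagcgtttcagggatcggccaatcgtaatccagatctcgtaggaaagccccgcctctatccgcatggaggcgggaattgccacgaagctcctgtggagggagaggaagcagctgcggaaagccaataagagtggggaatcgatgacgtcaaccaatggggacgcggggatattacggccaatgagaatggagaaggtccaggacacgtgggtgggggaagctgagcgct
ATP5G2: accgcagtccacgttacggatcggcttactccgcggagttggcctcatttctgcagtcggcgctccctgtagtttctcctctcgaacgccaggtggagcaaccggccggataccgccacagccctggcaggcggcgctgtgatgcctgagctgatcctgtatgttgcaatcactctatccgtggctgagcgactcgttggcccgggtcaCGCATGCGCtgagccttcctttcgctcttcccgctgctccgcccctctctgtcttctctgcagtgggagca

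In the ATP5I window the capitals mark 3 NRF1 matches upstream and 1 ETS match, on the opposite strand, just after the start. In SDHA the 4 NRF1 matches are spaced evenly up to the start. The COX7B match lies at the start on the opposite strand, and that of NDUFS8 lies well upstream on the gene's strand. ATP5G2 has 1 NRF1 match on the opposite strand, and ATP5G1 has a match to none of the 3 motifs.

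Of the genes that help build and feed these complexes, the carriers, the tricarboxylic acid cycle and the import machinery also held more genes that rose than fell in NB4, where 22.1% of all tested genes rose and 25.2% fell. In the list of electron carriers and accessory proteins 8 of 20 rose and 4 fell. CYCS, cytochrome c itself, had 91.8 and 89.7 RPKM in the shM14 libraries, against 59.8 and 57 RPKM in the shNS libraries, in NB4 (limma log2 change 0.63, SE 0.05, adjusted p = 0.0011), and 79.7 and 75.4 RPKM in the shM14 libraries, against 78.2 and 77.1 RPKM in the shNS libraries, in MM6. It rose in NB4, its groups overlapped in MM6, and the difference between the lines passed the test (log2 difference -0.63, SE 0.11, limma adjusted p = 0.0345). SLC25A4, an exchanger of ADP and ATP, had 6.74 and 6.91 RPKM in the shM14 libraries, against 4.52 and 4.39 RPKM in the shNS libraries, in NB4 (limma log2 change 0.52, SE 0.05, adjusted p = 0.00144).

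In the tricarboxylic acid cycle and pyruvate dehydrogenase list 9 of 17 rose and 1 fell in NB4, with a median of 0.20. SUCLG2, the GTP-forming beta subunit of succinyl-CoA ligase, was the one that fell, with 6.82 and 6.91 RPKM in the shM14 libraries, against 14.6 and 14.8 RPKM in the shNS libraries (limma log2 change -0.997, SE 0.04, adjusted p = 3.45e-04). Its MM6 level was 20.7 and 29.1 RPKM with shM14 and 55.9 and 52 RPKM with shNS, with the groups apart but not past the test (limma log2 change -1.11, SE 0.19, adjusted p = 0.111). Of the 17 in MM6 limma called none, with a median of 0.18. In 11 both shM14 libraries lay above both shNS libraries and in 1 below, beside 19% and 25.8% of all genes. The authors' deposited table called 1 of the 17 lower in MM6, beside 1.69% of all genes. In the fit of the common change 7 of the 17 rose and 1 fell, beside 4.8% and 7.1% of all genes. In the outer membrane and import list 8 of 15 rose and none fell in NB4, with a median of 0.22. TOMM5 of the entry pore rose (limma log2 change 0.47, SE 0.05, adjusted p = 0.00205), as did TIMM23 of the inner membrane channel (limma log2 change 0.37, SE 0.05, adjusted p = 0.00333).

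The assembly factors are given by complex, beside the 22.1% of all tested genes that rose and the 25.2% that fell. For complex I, 5 of 16 rose and 2 fell, with a median of 0.09. NDUFAF5 rose (limma log2 change 0.47, SE 0.06, adjusted p = 0.00386), as did NDUFAF4 (limma log2 change 0.41, SE 0.06, adjusted p = 0.00586). For complex IV, 4 of 20 rose and 4 fell, close to the shares of all genes, with a median of 0.05. COX15, which makes the haem of complex IV, fell (limma log2 change -0.52, SE 0.05, adjusted p = 0.00152), as did PET117 (limma log2 change -0.44, SE 0.05, adjusted p = 0.00214). For complexes II, III and V the lists were short, with 0 of 2, 1 of 6 and 1 of 3 that rose and 1 that fell in each. SDHAF1 (-0.34), UQCC1 (-0.31) and ATPAF2 (-0.24) fell, while UQCC2 (0.28) and TMEM70 (0.23) rose. SDHAF2 (0.12) did not pass. Whether the subunits and the factors differ was not tested.

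Among 18 listed regulators of mitochondrial genes limma called 3 higher and 2 lower in NB4, with a median of 0.06. Of all tested genes it called 22.1% and 25.2%. The authors' deposited table had 8 of the 18 higher and 1 lower, beside 22.1% and 21.5% of all 16726 genes. In 8 both shM14 libraries lay above both shNS libraries and in 5 below, beside 37.2% and 40% of all tested genes. TFB2M, a transcription factor for mitochondrial DNA, rose (limma log2 change 0.23, SE 0.05, adjusted p = 0.0129), and its relative TFB1M, a methyltransferase of mitochondrial ribosomal RNA, fell (limma log2 change -0.23, SE 0.05, adjusted p = 0.0198). The genes of the factors whose letters were searched in the promoters did not pass. NRF1 had 9.37 and 8.94 RPKM in the shM14 libraries, against 8.28 and 7.71 RPKM in the shNS libraries (limma log2 change 0.18, SE 0.06, adjusted p = 0.0518), GABPA, an ETS factor, changed by 0.08 (limma adjusted p = 0.3) and YY1 by 0.08 (limma adjusted p = 0.22). In MM6 none of the 118 tested genes of these lists passed the limma test or voom, with 13 at an unadjusted p under 0.05 in limma, beside 15% of all genes. Of these 13, 7 were among the 17 of the tricarboxylic acid cycle and pyruvate dehydrogenase list. With all 8 libraries in 1 model 11 of the 118 were called, beside 11.1% of all genes.

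**Figure D5:**
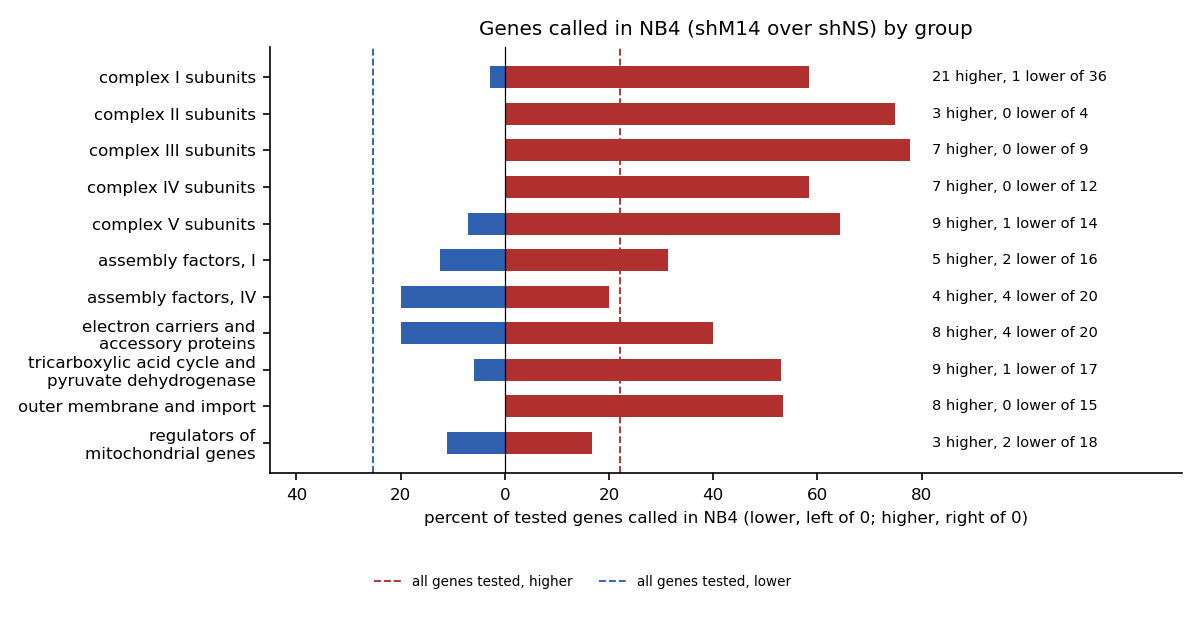
Percent of tested genes called higher (right of 0) and lower (left of 0) in NB4 in each group of genes, shM14 over shNS, with dashed lines at the 22.1% and 25.2% of all tested genes. The 5 complexes lie at 58.3% to 77.8% higher, while the assembly factors of complex IV have 4 higher and 4 lower of 20.

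Of the 10 rows that are no subunit gene, 7 were tested in NB4, with 3 changes above 0 and 4 below. Of these 7, 1 rose and 1 fell, where 22.1% of all tested genes rose and 25.2% fell. NDUFB2-AS1, antisense to NDUFB2, had 1.24 and 1.27 RPKM in the shM14 libraries, against 0.726 and 0.884 RPKM in the shNS libraries, and rose (limma log2 change 0.32, SE 0.06, adjusted p = 0.011). NDUFA6-AS1, whose current symbol is NDUFA6-DT, had 1.06 and 1.04 RPKM in the shM14 libraries, against 1.44 and 1.55 RPKM in the shNS libraries, and fell (limma log2 change -0.28, SE 0.05, adjusted p = 0.00839), while NDUFA6 itself rose. That fall was not called with voom (adjusted p = 0.0643) or with all 8 libraries in 1 limma model (adjusted p = 0.0998). Whether reads were counted by strand is not given in the sources used here, so an antisense RNA and a partner that it overlaps cannot be told apart with certainty. NDUFV2-AS1 had 1.56 and 0.811 RPKM with shM14 and 0.960 and 1.81 RPKM with shNS with overlapping groups. ATP5S and ATP5SL, which are factors and not subunits, changed by 0.13 and -0.09 and did not pass. The pseudogene UQCRBP1 and the near copy ATP5L2 reached at most 0.377 and 0.351 RPKM in any library.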

How the data were processed

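Directional poly(A) libraries of 8 samples (2 per group) started from 100 ng total RNA and gave single 50 bp ends, per the labels' protocols. The sources used here give no aligner, counter, counting strand, build or test of the authors. Each line has 1 table. The RPKM values of each library were deposited by the authors without a named unit, which was worked out from the values. The signal columns hold the authors' group means of size-factor-scaled reads, the ratio column the authors' fold change, the log2 column its logarithm per the file headers, and the p-value columns the authors' p and its adjustment.

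RPKM and group means resolved into whole reads for 100% of values within 0.01 reads. These reads gave the depth and the voom alternative. Count models planned for count files were not used. The 27 rows without a symbol could not match the rule.

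Genes with at least 1 RPKM in 2 libraries were fitted as log2(RPKM + 1) with limma 3.58.1 (R 4.3.3), with Benjamini-Hochberg adjustment over all tested genes and a threshold of 0.05. NB4 and MM6 had a fit each of 2 libraries against 2, the common change and the line difference over all 8. Fits and read recovery were tested on simulated data. Summaries and figures used Python 3.11.15, pandas 2.3.3, numpy 2.4.6, scipy 1.17.1 and matplotlib 3.10.9.

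The members, lists, tests and alternatives were chosen with earlier results of these data known. Named genes are those with the smallest p in each complex and fit, all called lower in NB4, the catalytic core, tissue isoforms, the highest and lowest of each complex, rows that are no subunit, and up to 2 genes per companion list. NRF1, GABPA, YY1, NDUFB10, and those listed only by a level between lines were named after their values were seen. Alternatives were no filter, a minimum of 5 RPKM, a pseudocount of 0.1, the replicate block, median-of-ratios scaling, voom, a variance trend, all 8 libraries in 1 model and leaving out each library. The model of all 8 libraries with the block was added, and the NRF1 letters shortened, after the data were seen. Some genes that the naming rule takes are not reported here, and the plot of NB4 changes leaves one out.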

Additional observations from a re-analysis of the deposited data

Results flagged for a closer look

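CYCS, which encodes the electron carrier cytochrome c and is no member of the 88 rows, responded differently in the 2 lines. It had 91.8 and 89.7 RPKM with shM14 and 59.8 and 57 RPKM with shNS in NB4, where it rose. In MM6 it had 79.7 and 75.4 RPKM with shM14 and 78.2 and 77.1 RPKM with shNS, with overlapping groups. The MM6 change minus the NB4 change was -0.63 in log2(RPKM + 1), and limma's test of that difference gave an adjusted p of 0.0345. No member gene passed the same test, although COX7B and NDUFC2 did with the replicate number as a block (limma adjusted p = 0.0437 and 0.0415). Groups of 2 libraries were too small for a check of single libraries that stand apart.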

How the results depend on the processing

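The number of members that rose in NB4, 48, was 43 to 59 with another pseudocount, filter, scaling or variance model or with voom, 11 with all 8 libraries in 1 model, and 20 to 46 without 1 library. The number that fell, 3, was 1 with median-of-ratios scaling, 0 with all 8 libraries in 1 model, and 1 to 2 without 1 library. In MM6 the count of 0 was 2 with all 8 libraries in 1 model (NDUFV3 and UQCRC2) and 0 without any 1 library. The common change, with 4 rises, had 2 with a pseudocount of 0.1, 7 with no filter, 9 with a filter of 5 RPKM, 18 with median-of-ratios scaling, 15 with voom, 10 with a variance trend, and 0 to 15 without 1 library; its falls were 0 to 1. The line difference was called for 0 to 1 member without 1 library. Why these counts moved was not tested, beyond the wider spread of MM6 entering the 8-library model and the fewer libraries in each leave-one-out fit. No called change reversed under any of these settings. Over all genes tested in NB4, the share that rose was 14.7% with no filter to 29.1% with a filter of 5 RPKM. The share that fell was 18.3% with no filter to 28.5% with voom. All 8 libraries in 1 model gave 6.57% higher and 8.77% lower in NB4, and 4.49% and 6.57% in MM6. For the common change, 3.78% of all genes rose with no filter and 6.58% with voom. Of the 51 members called in NB4, 21 were called whichever of the 4 NB4 libraries was left out.

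Replicate numbers were shared between groups, with only 2 pairs per line. The deviations of same-numbered libraries correlated with r = 0.08 in NB4 and r = 0.70 in MM6. The labels tie no number to a culture or day, so the numbers were not taken as a pairing. With the replicate block, NB4 had 49 rises and 1 fall, MM6 1 call (NDUFB2, limma adjusted p = 0.0419), the common change 6 rises, and the line difference 2 calls (COX7B and NDUFC2, limma adjusted p = 0.0437 and 0.0415). Over all genes the block called 21.1% higher and 24.4% lower in NB4, and 1405 genes (11.8%) in MM6, against 9 without it. For the common change it called 4.69% of all genes higher, and for the line difference 4.55% higher and 4.38% lower. Of the 118 companion genes in MM6 it called 8, or 22 with all 8 libraries, beside 11.8% and 23.8% of all genes. NDUFB5 and ATP5G2 were not called in NB4 with the block (limma adjusted p = 0.0641 and 0.0523). With all 8 libraries and the block, NB4 had 35 rises and 0 falls, beside 13.3% and 15.2% of all genes. MM6 then had 6 rises and 1 fall among 81 rows, beside 9.91% and 13.9% of all genes.

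The log2 ratio of summed RPKM in NB4 was 0.21 to 0.26 for complex I, 0.25 to 0.27 for II, 0.24 to 0.29 for III, 0.23 to 0.29 for IV and 0.25 to 0.28 for V without 1 library, and 0.29 for complex II with median-of-ratios scaling; over all 78 genes it was 0.23 to 0.28. In MM6 without 1 library it was -0.10 to 0.10, 0.07 to 0.24, 0.07 to 0.19, 0.02 to 0.18 and 0.0040 to 0.14 for complexes I to V, and -0.01 to 0.15 over all 78 genes. ATP5E, COX6B2 and COX7A1 had at most 18 reads in any library, and every other subunit gene had at least 431 reads in each. The part of depth in the results was not tested.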
